A study of Homo sapiens with 2 samples.

Results

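The 10 Krüppel-like factors (KLF) KLF2, KLF3, KLF4, KLF5, KLF6, KLF7, KLF9, KLF10, KLF11 and KLF13 were taken from the deposited table by their gene symbols, as 10 of its 13137 genes. The table holds digital gene expression tags from A549 cells, a human lung adenocarcinoma line, and the comparison asks which mRNAs differ when SOX2 is silenced. The cells labelled shRNA-SOX2 carried H1TetO-shRNA-SOX2, a hairpin against SOX2 under a doxycycline-inducible promoter, and those labelled shRNA-Con carried H1TetO-shRNA-Con, a scrambled hairpin in the same vector. Both were polyclonal lines selected with puromycin after lentiviral infection, both received doxycycline for 4 days, and 1 library was made of each, so that no value below has a replicate check.

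KLF proteins are transcription factors that bind GC-rich and CACCC sequences through conserved zinc fingers at their C-terminus, and they share this binding domain with the SP factors. They are commonly sorted by the regions outside the fingers into members that recruit the corepressor CtBP (such as KLF3), members that act mainly as activators through acetyltransferases (KLF2, KLF4, KLF5, KLF6 and KLF7), and members that recruit the SIN3A corepressor (KLF9, KLF10, KLF11 and KLF13). KLF4 is known for the differentiation of epithelia and, together with SOX2, as one of the factors that reprogram fibroblasts to pluripotency. KLF2 was named for its abundance in lung, where it acts in endothelium.

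The libraries held 2304184 gene tags for shRNA-Con and 2093816 for shRNA-SOX2. Each gene has 1 count per library, so tags were compared by Fisher's exact test against the other gene tags, and a gene was called when its Benjamini-Hochberg adjusted p over all 13137 genes was at most 0.001. This compares the libraries and not the conditions, and all intervals are 95% exact intervals that cover counting error only. For SOX2, the targeted gene, there were 16 tags in shRNA-Con, against 23 in the library labelled shRNA-SOX2, which gives a ratio of 1.58 (0.80 to 3.2, adjusted p = 0.333, Fisher's exact test), so no decrease of its mRNA was found in the library labelled for its silencing, and a direction drawn here rests on that label. The value columns are headed SC and S1, which were read as shRNA-Con and shRNA-SOX2. Of 12 A549 epithelial markers 11 had a row, from 8 and 4 tags for EPCAM to 10318 and 7887 for KRT18 (44217 and 50635 in all). Of these markers 4 were called higher and 4 lower, beside 9.53% and 12.2% of all genes, and their part in the results was not tested. At high depth small differences are called, such as that of TXNRD1, which was lower by 1.1 times with 4369 and 3599 tags. Of 10 markers of leukocytes, endothelium, fibroblasts and erythroid cells 5 had a row, from 3 and 0 tags for PECAM1 and 2 and 2 for PTPRC to 49 and 45 for ACTA2. They summed to 109 tags in shRNA-Con, against 100 in the library labelled shRNA-SOX2. None of these 5 was called (0 genes), beside 9.53% of all genes called higher and 12.2% lower.

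In the library labelled shRNA-SOX2 the genes KLF4, KLF10 and KLF6 were lower than in shRNA-Con, by 4.09, 2.42 and 1.66 times, and none of the 10 genes was called higher. The other 7 genes did not pass the threshold. Of these, KLF3, KLF5, KLF9 and KLF13 had larger shares of the tags there than in shRNA-Con, by 1.17, 1.11, 1.65 and 1.24 times. Of all 13137 genes, 12.2% were called lower and 9.53% higher. By these calls 56.1% of the called genes were lower, and 66.6% when the clean tags of each library, on listed genes or not, were the total. Among the 10045 genes whose tags in both libraries sum to 20 or more, which include 9 of the 10 KLF genes, 15.8% were called lower and 12.2% higher. A 2-fold or larger decrease was found for 2 KLF genes, KLF4 and KLF10, against 13.0% of those 10045 genes, and a 2-fold or larger increase for 0, against 10.4%. The median log2 ratio of the 9 KLF genes was -0.10, the same as that of all 10045 genes. In bulk RNA, fewer cells of a type and less RNA per cell cannot be told apart. With KLF7 included at the limit set for its 0 tags, the median of all 10 was -0.20.

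The call of 3 genes takes the spread between cultures as 0. In edgeR's exact test, which takes an assumed coefficient of variation between cultures, a coefficient of 0.1 left KLF4 and KLF10 called. Coefficients of 0.2 and 0.4 left no KLF gene called (0 genes). An unadjusted p under 0.05 remained in that test for KLF4, KLF7 and KLF10 at 0.2, and for KLF4 alone at 0.4. KLF7 is among them with 6 and 0 tags, and KLF6 is not. The share of all genes under this unadjusted limit is not given here.

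**Figure D1:**
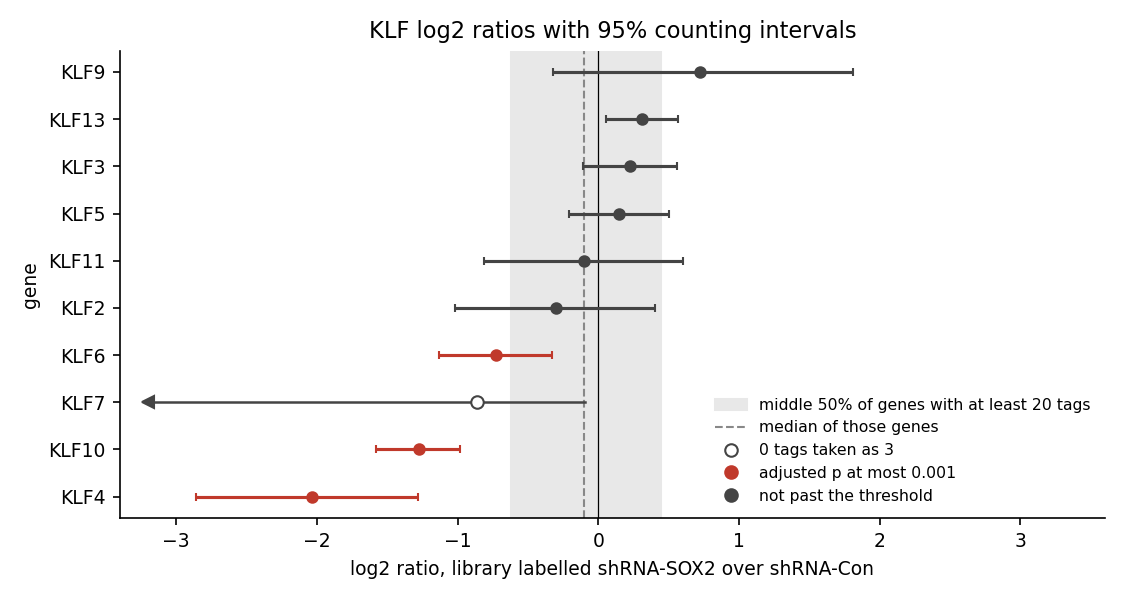
Each point is the log2 ratio of 1 KLF gene between the library labelled shRNA-SOX2 and shRNA-Con after division by the gene tags, with its 95% exact counting interval (no replicates), and the grey band and dashed line are the middle 50% (-0.62 to 0.44) and the median of the 10045 genes with at least 20 tags. KLF4, KLF10 and KLF6 (red) lie below the band, the open point of KLF7 takes 0 tags as 3, and the other 6 genes lie within or above the band with intervals that reach into it.

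Among the activators, KLF4 (Entrez Gene ID 9314, on chromosome 9) had the largest difference of the 9 KLF genes with at least 20 tags, and it was not told apart from KLF7, whose value is only a limit. It had 81 tags in shRNA-Con, 35.2 CPM (tags per 1000000 gene tags, 27.9 to 43.7), and 18 in the library labelled shRNA-SOX2, 8.6 CPM (5.09 to 13.6). These intervals do not overlap. The ratio was 0.245 (0.138 to 0.411), or -2.03 as a log2 fold change (Fisher's exact test, adjusted p = 1.83e-08), and of the 10045 genes with at least 20 tags 1.73% had a lower value. KLF4 thus went from the sixth of the 10 genes by tags in shRNA-Con to the ninth. With edgeR's exact test the adjusted p was 1.07e-05 for an assumed coefficient of variation of 0.1 and 0.0105 for one of 0.2.

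The 3 genes with the log2 ratio nearest to that of KLF4, among 2545 genes with a total of tags within 1.5 times of its own, were EGFR, ZMYM2 and RP9. EGFR, the receptor of epidermal growth factor, had 108 and 24 tags and a log2 fold change of -2.03. ZMYM2, a zinc finger protein of corepressor complexes, had 77 and 17 tags (-2.04), and RP9 had 102 and 22 (-2.08). Over 2 libraries such likeness is only an equal ratio.

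KLF6 (Entrez Gene ID 1316, chromosome 10), a widely expressed factor induced by injury and studied as a tumor suppressor, had 153 tags in shRNA-Con, 66.4 CPM (56.3 to 77.8). In the library labelled shRNA-SOX2 it had 84 tags, 40.1 CPM (32.0 to 49.7), and the intervals of the libraries do not overlap. The log2 fold change was -0.73 (ratio 0.604, 0.457 to 0.794; adjusted p = 0.000914, Fisher's exact test), just inside the threshold. When the libraries were scaled by edgeR's TMM factors the value was -0.65 with an adjusted p of 0.00348 by a binomial test, and with the median ratio the adjusted p was 0.00288, so that the call was lost under both.

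The other activators were not called. KLF5 (Entrez Gene ID 688, chromosome 13), which drives the proliferation of crypt epithelium in the intestine, had 131 tags in shRNA-Con, against 132 in the library labelled shRNA-SOX2. Its ratio was 1.11 (0.864 to 1.42), whose lower end lies above the ratios of KLF4, KLF10 and KLF6. KLF2 (Entrez Gene ID 10365, chromosome 19) had 42 and 31 tags, 18.2 and 14.8 CPM. Its ratio of 0.812 had an interval from 0.494 to 1.32, so that a difference within this range was not detectable at this depth.

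KLF7 (Entrez Gene ID 8609, chromosome 2), a factor best known from developing neurons, had the fewest tags, 6 in shRNA-Con, against 0 in the library labelled shRNA-SOX2. Its 0 tags allow up to 3, or 0.000143% of the gene tags, against which KLF7 was at least 1.82-fold lower before the counting error of its 6 tags. With that error the exact interval of the ratio reached up to 0.935. The gene was not called (adjusted p = 0.0784, Fisher's exact test), and with a total of 6 tags it could not have been, since no gene with fewer than 12 tags in the libraries together passed the threshold.

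**Figure D2:**
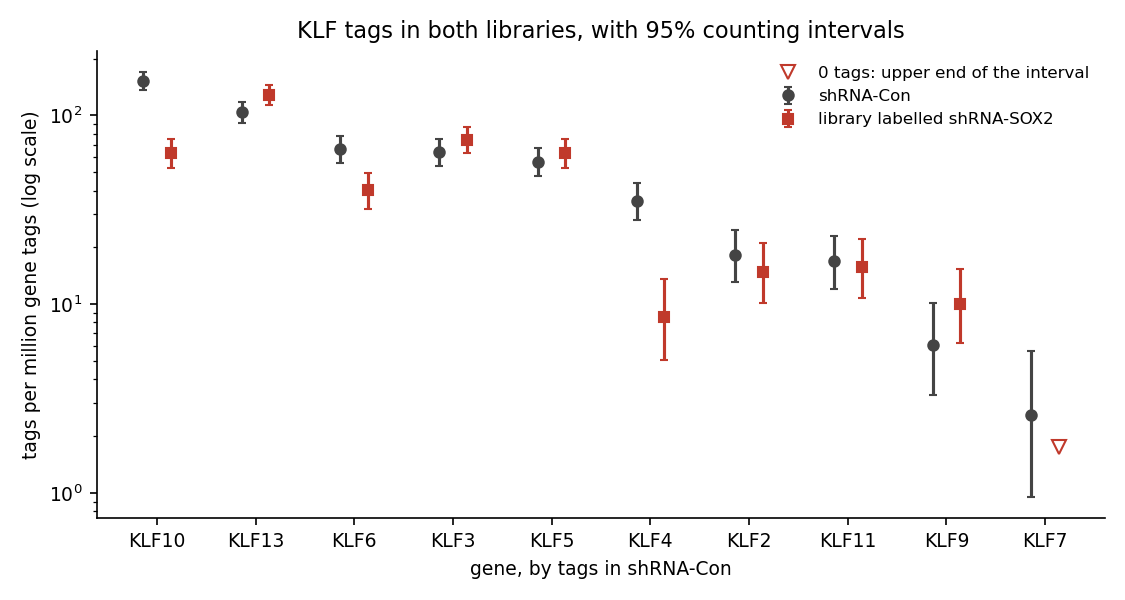
CPM on a log axis for the 10 KLF genes, ordered by their tags in shRNA-Con, with grey circles for shRNA-Con, red squares for the library labelled shRNA-SOX2 and bars for 95% exact counting intervals (1 library each). The bars of KLF10, KLF6 and KLF4 do not overlap between the libraries, those of the other genes do, and the open triangle of KLF7 marks the upper end of the interval of its 0 tags, 1.76 CPM.

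To place the genes called lower beside the others, RefSeq promoter windows (build GRCh38.p14, from 250 bases before to 50 after a transcript's start, 35116 windows in all) were searched on both strands for the E-box CACGTG, the CACCC box CCACCC, the GC box GGGCGG, the SOX core ATTGTT, the cyclic AMP response element TGACGTCA, the MEF2 element and the CArG box. Of the 10 genes 8 had windows, 13 in total, and those of KLF3 and KLF10 were not used here. The shares of all windows given below were not matched for GC content. It was 69% in the window of KLF4, 70.7% in that of KLF6, 80.7% in that of KLF2 and 32.7% in that of KLF9. The median of all windows was 58.7%. The E-box, bound by MYC and related factors, was present in 4 of the 13 windows and in 7.26% of all windows. The stretches of 30 bases around it are shown 5′ to 3′ with the E-box in capitals, because KLF4 and KLF6, both called lower, each had 1, as did 1 window of KLF11, which was not called, and 1 of KLF7.
KLF4, chr9:107489909-107489938, minus strand: ctcccccgccccCACGTGcgccgagtttgt
KLF6, chr10:3785289-3785318, minus strand: cgcggggcgagtCACGTGgggggaggggga
KLF11, chr2:10043635-10043664, plus strand: ccgcccgcagccCACGTGcggccgctgctg
KLF7, chr2:207134306-207134335, minus strand: gagaacgttgtaCACGTGtgcagctgtgct

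Counted from the annotated start, the E-box began at -157 in KLF4, -97 in KLF6, -182 in KLF11 and -186 in KLF7, and it overlapped none of the other motifs. GC boxes, the sequence bound by KLF and SP factors, occurred in windows of 7 of the 8 genes (8 of 13 windows, 45% of all windows), with 4 in that of KLF4, 2 in that of KLF6, 6 in that of KLF2 and 0 in that of KLF9. CACCC boxes were found in 2 windows, of KLF13 and KLF7 (34.3% of all windows), and the one of KLF13 overlapped a GC box. The SOX core was found in a window of KLF5 and one of KLF7 (10.1% of all windows), and in neither that of KLF4 nor that of KLF6. The MEF2 element, through which the kinase ERK5 is known to induce KLF2, was found in 0.572% of all windows and among these genes in that of KLF2 alone. It is shown in capitals, and whether it bears on the tags of KLF2, which was not called, was not tested.
KLF2, chr19:16324696-16324725, plus strand: tataccgcggCTAAATTTAGgctgcgcccg

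A CArG box occurred in 1 window of KLF7 (1.29% of all windows) and a cyclic AMP response element in 1 of KLF11 (1.85%). These are matches of letters in a window, and whether any of them is bound in A549 cells was not tested.

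Among the SIN3A-binding factors, KLF10 (Entrez Gene ID 7071, chromosome 8), first described as an early gene induced by transforming growth factor beta (TGF-β), was the KLF gene with the most tags in shRNA-Con. It had 352 tags there, 153 CPM (137 to 170), and 132 in the library labelled shRNA-SOX2, 63.0 CPM (52.7 to 74.8). The intervals lie far apart, and the log2 fold change was -1.28 (ratio 0.413, 0.335 to 0.505; adjusted p = 1.59e-18, Fisher's exact test). Because it has more tags than KLF4, its ratio is known more narrowly. With an assumed coefficient of variation of 0.1 its adjusted p was 1.10e-05 in edgeR's exact test, and with 0.2 it was 0.0599.

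KLF11 (Entrez Gene ID 8462, chromosome 2), the closest relative of KLF10 and likewise induced by TGF-β, had 39 tags in shRNA-Con, against 33 in the library labelled shRNA-SOX2. Its log2 fold change was -0.10 (ratio 0.931, 0.568 to 1.52), equal to the median of all genes. The ratio of KLF10 was 0.443 times that of KLF11 (0.26 to 0.761), so these relatives differed beyond counting error.

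KLF13 (Entrez Gene ID 51621, chromosome 15), an activator of the chemokine gene CCL5 in T lymphocytes, had 240 tags in shRNA-Con, against 270 in the library labelled shRNA-SOX2, 104 and 129 CPM. The ratio was 1.24 (1.04 to 1.48) and its adjusted p of 0.0453 in Fisher's exact test did not reach 0.001. With clean tags as the total the log2 fold change was 0.20 instead of 0.31 (adjusted p = 0.237, Fisher's exact test). KLF9 (Entrez Gene ID 687, chromosome 9), a gene induced by glucocorticoids and thyroid hormone, had 14 and 21 tags. Its ratio of 1.65 had an interval from 0.801 to 3.51, and no difference was detectable at this depth.

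KLF3 (Entrez Gene ID 51274, chromosome 4), the CtBP-binding repressor of the set, had 147 tags in shRNA-Con, against 156 in the library labelled shRNA-SOX2, 63.8 and 74.5 CPM. The ratio was 1.17 (0.926 to 1.47), and the gene was not called (adjusted p = 0.315, Fisher's exact test).

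**Figure D3:**
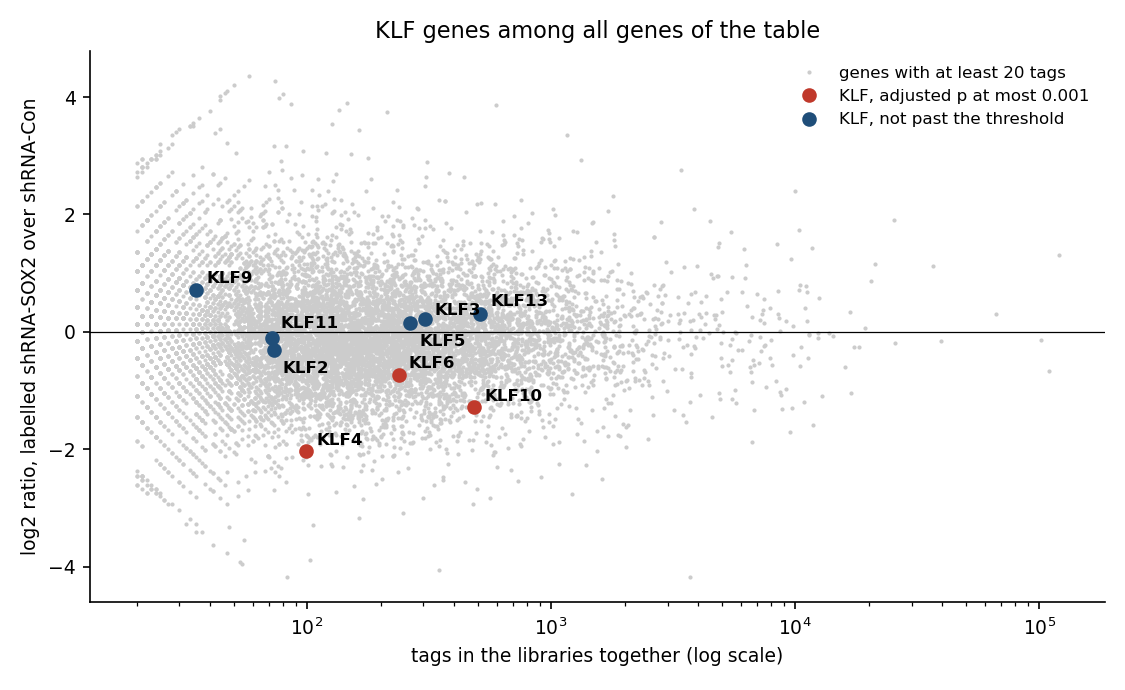
Each grey point is 1 of the 10045 genes with at least 20 tags, by its tags in the libraries together (log axis) and its log2 ratio between the library labelled shRNA-SOX2 and shRNA-Con, with the 9 KLF genes of that depth on top. KLF4, KLF10 and KLF6 (red) lie at -2.03, -1.28 and -0.73, and the other 6 (blue) between -0.30 and 0.72.

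The order of the genes by tags differed between the libraries. In this assay a captured mRNA gives 1 tag whatever its length, so tags of different genes were set side by side without division by length, although the share of an mRNA that is captured may differ between genes. In shRNA-Con KLF10 stood first and KLF13 second, with 1.47 times as many tags for KLF10 (1.24 to 1.74). KLF6, KLF3 and KLF5 followed with 153, 147 and 131 tags, and neighbours in this trio did not differ beyond counting error. KLF4 had fewer tags than KLF5 and more than KLF2, while KLF2 and KLF11 did not differ beyond counting error. KLF9, with 14 tags, and KLF7, with 6, came last.

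In the library labelled shRNA-SOX2 KLF13 stood first, with 1.73 times the tags of KLF3 (1.42 to 2.12). KLF3, KLF10 and KLF5, with 156, 132 and 132 tags, did not differ between neighbours beyond counting error, and KLF6 followed with 84. KLF11, KLF2, KLF9 and KLF4, with 33, 31, 21 and 18 tags, formed a run in which no neighbours differed by more than this error. KLF10 held 29.2% of the tags of the 10 genes in shRNA-Con (26.7% to 31.9%), against 15.1% in the library labelled shRNA-SOX2 (12.7% to 17.6%). KLF13 held 19.9% (17.7% to 22.3%) and 30.8% (27.7% to 34.0%). The total of the 10 genes was 1205 tags in shRNA-Con, against 877 in the library labelled shRNA-SOX2, which gives a ratio of 0.801 (0.733 to 0.874). The 3 genes called lower went from 586 tags to 234, and the other 7 had 619 and 643.

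The ratios of single genes were compared in 45 pairs, a comparison that no scaling of the libraries can change. In 22 pairs the interval of the ratio of ratios excluded 1, and all of these included KLF4, KLF10, KLF6 or KLF7. The intervals were not adjusted for the 45 pairs, which share genes. They use the same tags as the calls, so the pairs are no separate check of the called genes. KLF4 differed from 7 of the 9 other genes, and KLF10 likewise from 7. KLF4 and KLF10 were not told apart, since the ratio of KLF4 was 0.593 times that of KLF10 with an interval from 0.322 to 1.04. By these intervals KLF6 differed from both, its ratio being 1.46 times that of KLF10 (1.03 to 2.07, with a lower end close to 1). The ratio of KLF4 was 0.405 times that of KLF6 (0.214 to 0.738). KLF2, often induced together with KLF4, had a ratio 3.32 times that of KLF4 (1.58 to 7.06), while its difference from KLF6 was within counting error (1.34, 0.756 to 2.37). Among KLF2, KLF3, KLF5, KLF9, KLF11 and KLF13 no pair differed beyond counting error.

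**Figure D4:**
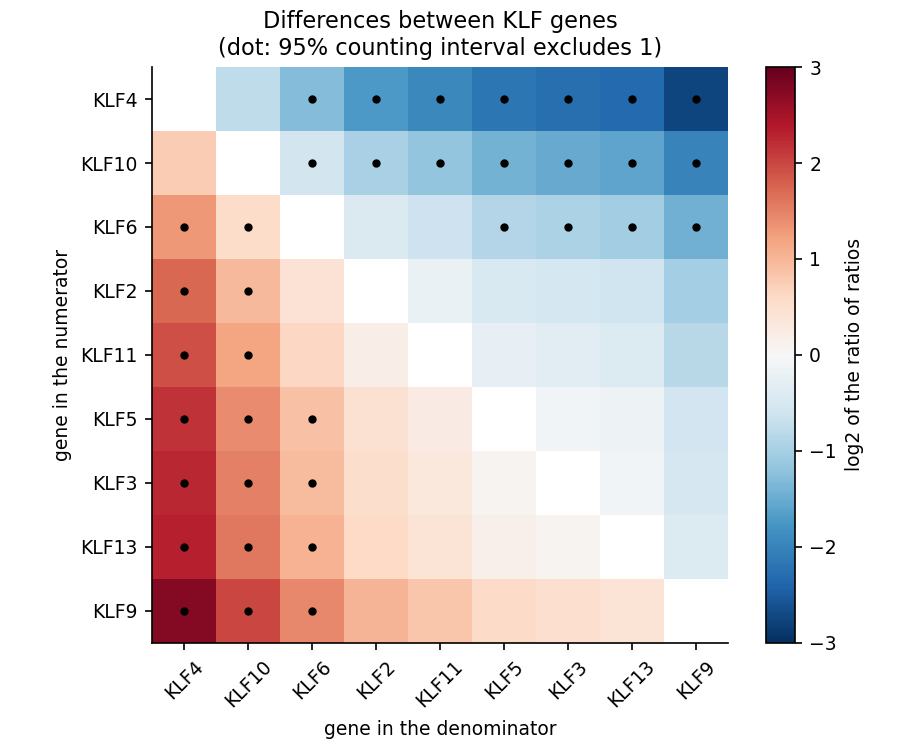
Each square gives the log2 of the ratio of 1 KLF gene (row) divided by the ratio of another (column), each ratio being that between the library labelled shRNA-SOX2 and shRNA-Con, for the 9 KLF genes without KLF7, ordered from the lowest ratio, with a blank diagonal. Dots mark pairs whose 95% counting interval, not adjusted for the number of pairs, excludes 1, and every dot lies in a row or column of KLF4, KLF10 or KLF6.

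Called and uncalled genes stood side by side in 2 of the 3 classes, and the CtBP class held KLF3 alone. Of the 5 activators 2 were called lower and of the 4 SIN3A-binding factors 1 was, beside 15.8% of all genes with at least 20 tags. The tags of these classes summed to ratios of 0.706 (0.603 to 0.826) and 0.778 (0.689 to 0.878). The sum of the SIN3A-binding class rests on KLF10, since KLF9 and KLF13 had more tags in the library labelled shRNA-SOX2 and the median log2 fold change of the class was 0.10. Of 16 other KLF and SP genes 8 had a row. In either direction 0 of these 8 were called, beside 12.2% of all genes called lower and 9.53% higher. However, the counting interval of the ratio excluded 1 for KLF16 and SP3, which were lower, and for SP9, which was higher, all named here after their values were seen. KLF16 had 134 tags in shRNA-Con, against 80 in the library labelled shRNA-SOX2 (-0.61 on the log2 scale). SP3 had 135 and 91 (-0.43), and SP9 had 8 and 19 (1.39). The 8 genes together had 436 and 356 tags, a ratio of 0.899 (0.779 to 1.04).

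Of 15 cofactors through which KLF proteins act, 3 were called lower and 1 higher, beside 15.8% and 12.2% of all genes with at least 20 tags, so these counts lie near the background. They had a median log2 fold change of -0.49 against -0.10 for all genes of that depth. NCOR1, a nuclear receptor corepressor, had 109 and 42 tags (log2 fold change -1.24). CREBBP, an acetyltransferase used by the activators, had 236 and 118 (-0.86), and the deacetylase HDAC2 had 404 and 261 (-0.49), a call that was lost with TMM factors. The acetyltransferase KAT2A had 195 and 266 tags (0.59), and this call was lost with clean tags.

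Of 9 enzymes that control the stability of KLF proteins, 1 was called, beside 12.2% higher and 15.8% lower among genes with at least 20 tags. This 1, FBXW7, marks KLF5 and MYC for degradation. It had 15 tags in shRNA-Con, against 47 in the library labelled shRNA-SOX2 (1.79 on the log2 scale). In the pathway that induces KLF2 and KLF4 through the kinases MEK5 and ERK5 and the MEF2 factors, 9 of 10 genes had a row, of which 2 were called higher and 1 lower, beside 12.2% and 15.8% of genes with at least 20 tags, and the median log2 fold change was 0.38. MAP3K3, the kinase at its head, had 29 and 68 tags (1.37), MEF2A had 87 and 133 (0.75, not called with clean tags), and MEF2D had 183 and 101 (-0.72, not called with TMM factors).

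Of 6 genes of the TGF-β pathway, which induces KLF10 and KLF11, 2 were called lower and 1 higher, beside the same 15.8% and 12.2% of genes, with a median log2 fold change of -0.44. The receptor TGFBR2 had 350 tags in shRNA-Con, against 174 in the library labelled shRNA-SOX2 (-0.87), the signal transducer SMAD2 had 430 and 221 (-0.82), and the partner receptor TGFBR1 had 118 and 185 (0.79). Of 6 genes that mediate or follow the glucocorticoid response, which induces KLF9, 5 had a row. Of these 0 were called, beside 15.8% lower and 12.2% higher among genes with at least 20 tags, and the median log2 fold change was -0.02.

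Of 28 genes described as targets of KLF factors, 22 had a row, of which 3 were called higher and 4 lower, near the 12.2% and 15.8% of all genes with at least 20 tags, and the median log2 fold change of the 19 with at least 20 tags was 0.10. CDKN1A, the cell cycle inhibitor p21 that KLF4 and KLF6 are known to activate, had 696 tags in shRNA-Con, against 1941 in the library labelled shRNA-SOX2 (1.62 on the log2 scale). KRT19, a keratin that KLF4 is known to activate, had 35 and 127 (2.0), and LGALS3, which encodes galectin-3 and is known as a target of KLF3, had 507 and 745 (0.69).

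The targets called lower included PLAU, PDGFA and CCNB1. PLAU, the urokinase gene, had the largest difference of the list, with 224 tags in shRNA-Con, against 24 in the library labelled shRNA-SOX2 (-3.08 on the log2 scale). CCNB1, a cyclin gene that KLF4 is known to repress, had 238 and 134 tags (-0.69). PDGFA, a growth factor gene activated by KLF5, had 76 and 19 (-1.86). KLF5 itself was not called.

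**Figure D5:**
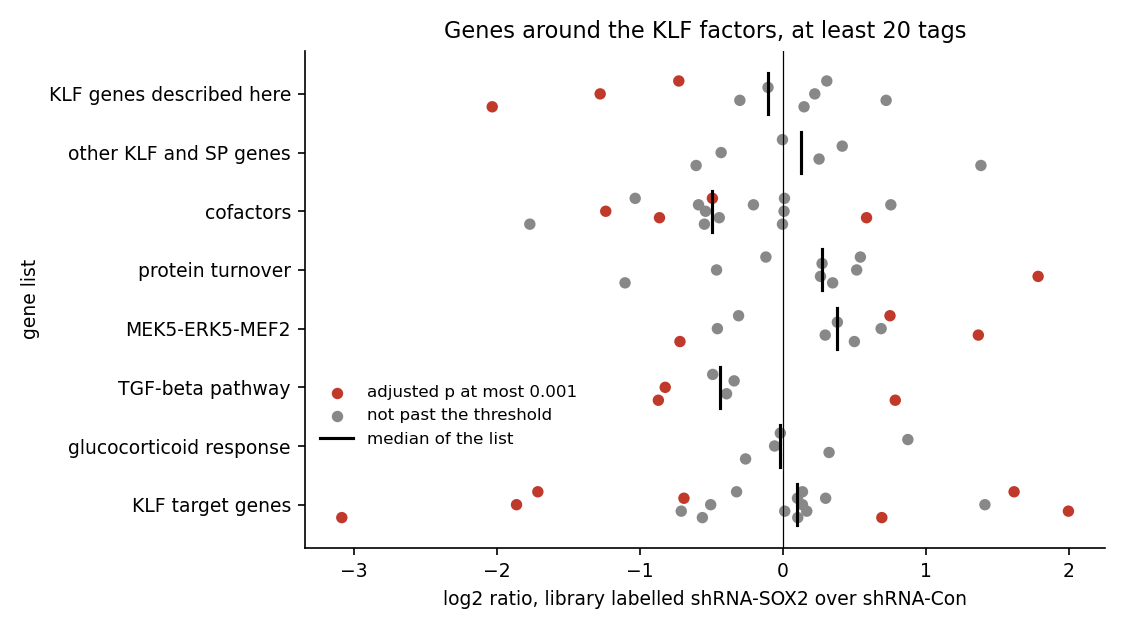
Each point is the log2 ratio of 1 gene with at least 20 tags between the library labelled shRNA-SOX2 and shRNA-Con, by gene list, red where the adjusted p of Fisher's exact test was at most 0.001, with a black bar at the median of each list (1 library each). The medians run from -0.49 for the cofactors to 0.38 for the MEK5-ERK5-MEF2 pathway, and 4 of the 8 lists hold called genes on both sides of 0.

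Some tags may belong to copies of these genes. GENCODE release 29 lists 4 pseudogenes under the name of KLF2, 2 of KLF3, 1 of KLF4 and 1 of KLF7. How the authors counted shared tags is not given in the sources used here, so the values of these 4 genes are uncertain to that extent. KLF3 overlaps KLF3-AS1, KLF7 overlaps MIR7845 and KLF11 overlaps AC104794.4 on the opposite strand. Without knowledge of the strand used in counting their tags cannot be told apart. On the same strand KLF13 overlaps UBE2CP4, and KLF7 overlaps KLF7-IT1 and MIR2355, where the strand would not part the tags. KLF10 and KLF6 have no pseudogene under their names (0 listed).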

How the data were processed

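Digital gene expression was measured in 1 library per line from oligo(dT)-purified mRNA of 4 µg total RNA. The authors deposited whole-number tag counts per Entrez Gene ID without normalization, and TPM values, which are tags per 1000000 clean tags with 0 written as 0.01. Their submission names hg19 (processing notes), and the aligner, the annotation and the handling of shared tags are not given in the sources used here. The columns of the authors' own comparison, a log2 ratio with its p-value and FDR, were not used.

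Counts were divided by the gene tags of each library (2304184 and 2093816, or 65.5% and 60.6% of the clean tags recovered from TPM), and counts below 3 were set to 3 for log2 fold changes. Fisher's exact test was applied gene by gene, two-sided, and calls were made at an adjusted p of 0.001, the study's limit. Exact Clopper-Pearson intervals (95%) were used for CPM, shares and ratios of tags. The intervals of ratios of ratios were conditional 95% intervals of an odds ratio. Medians cover genes with at least 20 tags. The alternatives were TMM factors and the median ratio (each with a two-sided binomial test), clean tags, edgeR's exact test with an assumed coefficient of variation of 0.1, 0.2 or 0.4, an adjusted p of 0.05, a log2 fold change of at least 1, a minimum of 10 tags, and 0.5 added to each count. Fisher's exact test with its adjustment, the log2 fold changes and the exact intervals of single-gene ratios were tested on simulated counts. The scalings, the binomial and edgeR tests, the intervals of pairs and the motif search were not. The simulated counts held counting error only, without spread between cultures, so they cannot show how the calls or intervals hold where cultures vary. The tests were run in scipy 1.17.1 (Python 3.11.15). TMM factors and the exact test came from edgeR 4.0.16 and the median ratio from DESeq2 1.42.0, both under R 4.3.3.

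The KLF genes and the gene lists were chosen with earlier results of these data known. Named were all 10 KLF genes, SOX2, the called genes of each list and the 3 genes nearest to KLF4. KLF16, SP3 and SP9 were named outside this rule, after their values were seen. The values of 1 called gene of the target list are not reported here. Of the 10 genes, 9 had at least 20 tags.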

Additional observations from a re-analysis of the deposited data

How the results depend on the processing

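No paired analysis was possible because the study has 1 library of each line, and leaving one out would leave no comparison. The number of KLF genes called, 3 in Fisher's exact test, fell to 2 under TMM factors, the median ratio, a limit of 1 on the size of the log2 fold change and an assumed coefficient of variation of 0.1. It was 3 with clean tags or a minimum of 10 tags. At an adjusted p of 0.05 it was 4, with 3 lower and 1, KLF13, higher. At coefficients of 0.2 and 0.4 no KLF gene was called, 0 in each case, which follows from the assumed spread, and these tests called 113 and 0 genes of the whole table. The calls of the whole table were 56.1% lower, 49.4% with TMM factors and 66.6% with clean tags, and the median of all genes with at least 20 tags shifted by -0.11 with clean tags and by 0.07 with TMM factors. The median of the KLF genes, -0.10, lay between -0.22 with clean tags and -0.03 with TMM factors, and of the 9 with at least 20 tags 2 were past 2-fold under each scaling and with 0.5 added. KLF7, with 0 tags in a library, went from -0.86 to -3.56 with 0.5 added. TMM factors or the median ratio took the calls of KLF6, HDAC2 and MEF2D, and clean tags those of KAT2A and MEF2A. Of the 33 called genes chosen by the naming rule, 19 lost the call with a coefficient of 0.1, 32 with 0.2 and 33 with 0.4. Over the whole table a coefficient of 0.1 called 1166 genes, against 2849 in Fisher's exact test. Depth limits KLF2, KLF7, KLF9 and KLF11, with 73, 6, 35 and 72 tags in the libraries together.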

Other observations

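Several KLF genes, among them KLF4, KLF6 and KLF10, are known as immediate early genes, which respond within minutes to growth factors and stress. Of 18 other immediate early genes, all with a row, 6 were called lower and 2 higher in the library labelled shRNA-SOX2 by Fisher's exact test, with a median log2 fold change of -0.28 over the 17 with at least 20 tags against -0.10 for all genes. Of all genes with at least 20 tags 15.8% were called lower and 12.2% higher. The AP-1 genes JUN, FOSL1 and JUNB had 697 and 225, 115 and 36, and 171 and 86 tags in shRNA-Con and the library labelled shRNA-SOX2, log2 fold changes of -1.49, -1.54 and -0.85. CYR61, a matricellular protein gene, had 257 and 92 tags (-1.34), the phosphatase gene DUSP1 had 714 and 403 (-0.69), and IER3 had 488 and 267 (-0.73). FOS moved the other way, with 786 and 1274 tags (0.84), and EGR3 had 2 and 19 tags, a ratio of 10.5 (95% exact counting interval 2.52 to 92.6). The list thus held called genes in both directions, and with an assumed coefficient of variation of 0.2 in edgeR's exact test none of these 8 genes was called (0 genes).

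Of the genes that act with KLF4 in pluripotency, 6 of 10 had a row and 1 was called, beside 12.2% of all genes called lower and 9.53% higher. MYC, which with KLF4 and SOX2 belongs to the reprogramming factors, had 542 tags in shRNA-Con, against 125 in the library labelled shRNA-SOX2 (-1.98 as a log2 fold change, Fisher's exact test with an adjusted p of 1.12e-52). Its ratio was close to that of KLF4, while SOX2 had 16 and 23 tags. This call was lost with an assumed coefficient of variation of 0.2 as well.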
